A study of Mus musculus with 20 samples.

Results

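The genes described here encode the nuclear subunits of mitochondrial respiratory complexes II to V. They are the rows whose symbol begins with Uqcr, Atp5 or Cox4 to Cox8, or is Sdha, Sdhb, Sdhc or Sdhd, with symbols that hold a dot or end in Rik dropped. The rule found 43 genes among the 13225 of the deposited table, and no symbol had to be dropped. By role, 4 belong to complex II, 8 to complex III, 14 to complex IV and 16 to complex V, and Atp5s carries the name without being a structural subunit. The study compared alveolar macrophages, the resident phagocytes of the air spaces, between 4 groups of 5 mice with 1 library per mouse. WT mice were C57BL/6 and breathed air (WT air) or cigarette smoke (WT smoke) for 4 weeks. The miR-155 KO mice were of strain B6.Cg-Mir155tm1.1Rsky/J, which lacks the microRNA miR-155 in every cell type, and breathed air (KO air) or cigarette smoke (KO smoke) for the same 4 weeks. Cells of all groups were sorted as CD45+, Siglec-F+ and CD11c+, and 25 ng of their RNA entered a poly-A selecting library.

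Complex II oxidizes succinate and passes its electrons to ubiquinone, complex III passes them on to cytochrome c, and complex IV hands them to oxygen. Complexes III and IV pump protons out of the matrix, and complex V, the ATP synthase, lets them flow back to make ATP. Complex II is encoded in the nucleus alone, whereas complexes III, IV and V join subunits from the nucleus with subunits from mitochondrial DNA. Resident alveolar macrophages are known to rely on oxidative metabolism for much of their energy.

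Smoke raised 21 of the 43 genes in WT macrophages and lowered 2, where 9.66% of all genes rose and 12.8% fell. In miR-155 KO macrophages 3 of the 43 rose and 1 fell, beside 7.05% and 8.45% of all genes. With a trend of expression on the longest transcript length removed, the 21 in WT became 6, where 9.09% of all genes rose. With the median transcript length instead they became 19, where 9.69% rose. The rises in WT were modest, the largest being 1.59-fold for Atp5g1, and lay in all 4 complexes. All 4 genes called in miR-155 KO were called in the same direction in WT. None was called between the genotypes in air, and in smoke 4 of them were lower in miR-155 KO than in WT. The difference between the smoke responses of the genotypes passed for none of the 43.

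The 20 libraries held 6885680 to 11952088 reads each. Markers of alveolar macrophages, 11 of 12 measured, summed to 24090 to 30760 CPM (the reads of a gene scaled to the library total) over all libraries, most of it Chil3. Of the 11, 2 rose and 5 fell with smoke in WT. Car4 went from a mean of 524.9 to 1495 CPM, Siglecf, the protein of the sort, from 519.6 to 223 CPM and Ear2 from 1243 to 497 CPM. Summed neutrophil markers, 5 of 9 measured, ran from 90.3 to 129 CPM in WT air and from 159 to 357 CPM in WT smoke, with S100a9 at 0 reads in WT air. Within the sum Mmp8 went from a mean of 35.5 to 188 CPM in WT and Csf3r from 57.4 to 17.8 CPM. The sums ran from 86.1 to 134 CPM in KO air and from 139 to 314 CPM in KO smoke. Monocyte and interstitial macrophage markers, 10 of 13 measured, summed to 94.1 to 124 CPM in WT air, 86.5 to 268 in WT smoke, 101 to 135 in KO air and 77.6 to 106 in KO smoke, with Ly6c2 and C1qa at 0 reads in WT air. Ear6 and Siglece, the 2 measured of 6 genes listed for eosinophils, summed to 71.96 to 82.2 CPM in WT air, 126 to 193 in WT smoke, 71.2 to 123 in KO air and 119 to 161 in KO smoke. In WT the mean of Ear6 went from 17.8 to 129.6 CPM and that of Siglece from 59.6 to 28.05 CPM. As these genes went opposite ways, their sum is no measure of eosinophils. The part of these cells in the results below was not tested. The host transcript of miR-155, Mir155hg, had 0 or 1 read in each WT air library, 0 to 21 in WT smoke, 0 to 15 in KO air and 0 to 5 in KO smoke, so it gives no check of the genotype labels. The KO air libraries of mice IIIb2, IIIb3 and IIIb4 had no read for 1645, 1524 and 1451 genes, the other libraries for 259 to 1224, and results that turn on them are given without them too.

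The promoters of the c ring genes open the sequences, because Atp5g1, Atp5g2 and Atp5g3 encode the same mature subunit c of complex V and 2 of the 3 passed for smoke in WT. Each window is the 150 bases before the RefSeq start of the gene, 5′ to 3′ on the gene's own strand, in GRCm38.p6. Capitals mark a match to the core of a transcription factor motif. Those of Atp5g1 (chr11:96075632-96075781), Atp5g2 (chr15:102671048-102671197) and Atp5g3 (chr2:73911327-73911476) lie on the minus strand.
Atp5g1: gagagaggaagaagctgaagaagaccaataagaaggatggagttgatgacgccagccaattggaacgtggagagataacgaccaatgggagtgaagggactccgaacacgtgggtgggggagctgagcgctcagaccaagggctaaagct
Atp5g2: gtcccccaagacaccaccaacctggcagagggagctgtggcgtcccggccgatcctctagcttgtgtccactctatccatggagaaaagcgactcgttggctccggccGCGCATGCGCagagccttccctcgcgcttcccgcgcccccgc
Atp5g3: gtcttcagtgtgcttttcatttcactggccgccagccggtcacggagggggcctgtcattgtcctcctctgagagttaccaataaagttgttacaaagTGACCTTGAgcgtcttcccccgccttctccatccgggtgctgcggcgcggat
The windows of Atp5k (chr5:108434400-108434549, minus strand), which rose with smoke in both genotypes, and of the complex II anchor Sdhd (chr9:50603850-50603999, minus strand), which passed in WT, are shown beside them.
Atp5k: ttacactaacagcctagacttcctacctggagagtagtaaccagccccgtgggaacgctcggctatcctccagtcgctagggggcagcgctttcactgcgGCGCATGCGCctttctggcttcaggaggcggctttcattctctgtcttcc
Sdhd: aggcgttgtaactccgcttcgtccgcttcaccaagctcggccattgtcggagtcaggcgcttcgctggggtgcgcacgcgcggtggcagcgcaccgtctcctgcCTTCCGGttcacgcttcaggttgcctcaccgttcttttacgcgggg
The capitals in Atp5g2 and Atp5k are the NRF1 core GCGCATGCG, found on both strands at the same place. Those in Sdhd are the reverse complement of the ETS and GABP core CCGGAAG, and those in Atp5g3 the reverse complement of the ERRA motif TCAAGGTCA. The window of Atp5g1 holds none of these letters.

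Promoter windows of 250 bases before to 50 after the start were matched for 34 of the 43 genes, with Atp5f1 and Atp5s found under their RefSeq names Atp5pb and Dmac2l. Those of Atp5a1, Atp5mpl, Cox4i1, Cox6a2, Cox6c, Sdhc, Uqcrb, Uqcrc2 and Uqcrq are not shown or counted. The NRF1 core was in 6 of the 34, or 17.6%, against 1.95% of all 27025 genes with a window and 4.25% of the 9379 that the expression table also holds. Those 6 were Atp5g2, Atp5k, Atp5l, Cox6a1, Uqcr11 and Uqcrc1. The ETS and GABP core was in 12, or 35.3%, against 9.93% and 21.1%. The YY1 core CCATCTT was in 4, or 11.8%, against 7.28% and 8.75%. The ERRA motif was in Sdhd and Atp5g3, or 5.88%, against 0.466% and 0.341%. Either strand counted, the 4 motifs do not contain one another, and 16 of the 34 windows held none of them. A match describes letters in a window and is not a measured binding site.

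**Figure D1:**
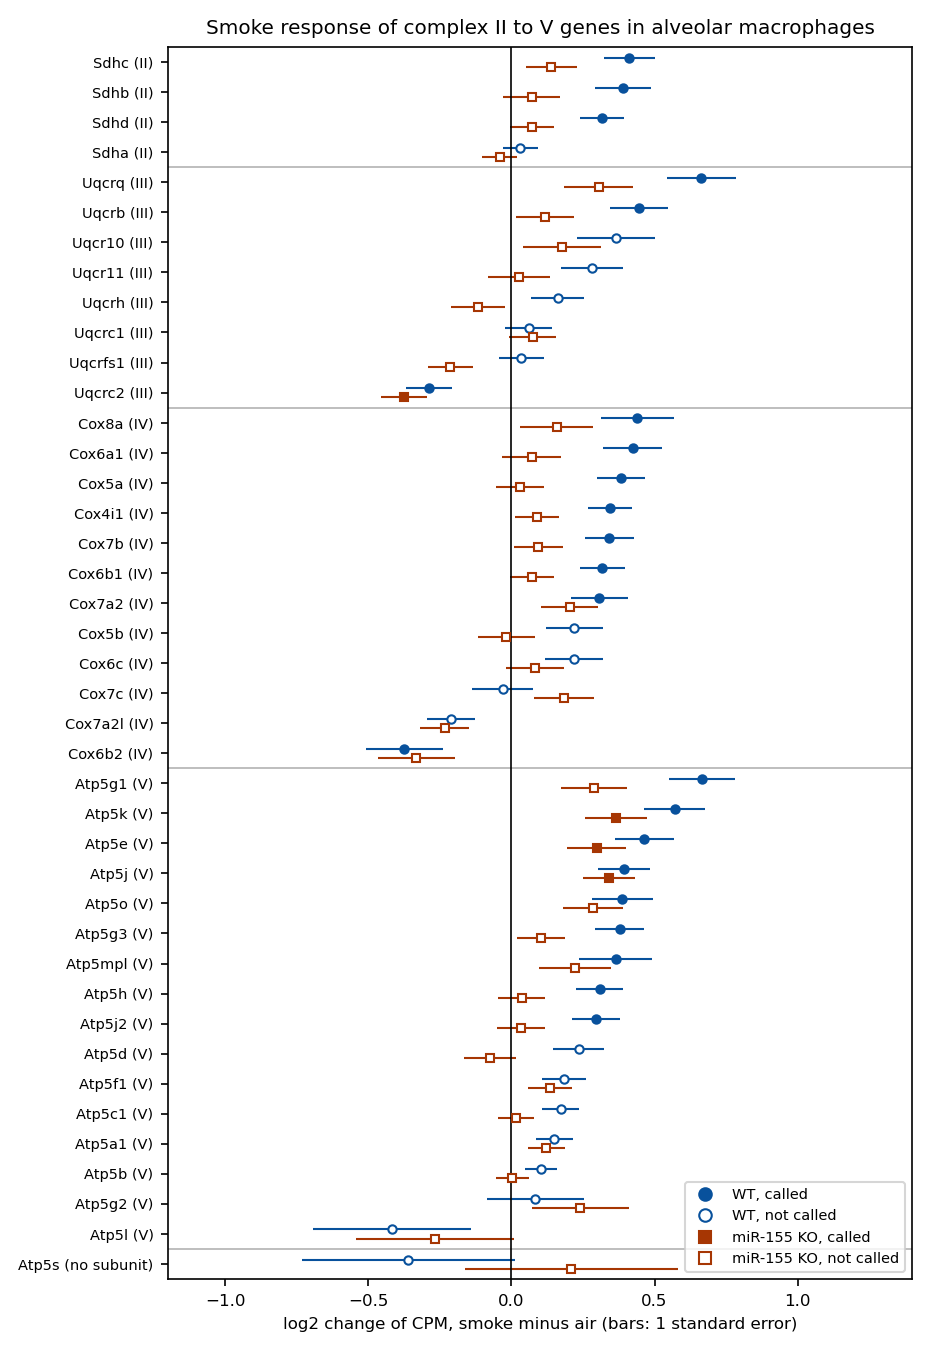
Log2 change of CPM, smoke minus air, of 41 of the 43 genes (rows, by complex), with 1 standard error as bars, 5 mice per group. Blue circles are WT and brown squares miR-155 KO, filled where the limma adjusted p was under 0.05. Most blue points lie right of 0, and 36 of the 43 genes had a larger change in WT than in miR-155 KO. Cox6a2 and Cox7a1 fall outside the axis and are described in the text.

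Of all genes, 9.66% rose and 12.8% fell with smoke in WT at a limma adjusted p under 0.05, the rule used for every call here. Among the 43 genes the 21 that rose are 48.8% and the 2 that fell 4.65%. The median log2 change was 0.31 over the 43 genes, 37 of them above 0, against -0.02 over all genes. WT air and WT smoke did not overlap in 24 of the 43, with smoke above air in 22, or 51.2%, and below in 2, or 4.65%, against 8.15% of all genes above and 1322 of the 13225 below. The spread among mice is the error in these tests, and as bulk samples they cannot tell fewer cells of a type from less RNA per cell.

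Complex II had 3 of its 4 subunits up in WT smoke and none called in miR-155 KO. Sdhc (chr1:171127165-171150603), a membrane anchor that helps to bind ubiquinone, had 107, 93.4, 109, 104 and 112 CPM in WT air and 129, 127, 154, 138 and 153 in WT smoke. Every WT smoke mouse lay above every WT air mouse. The log2 change was 0.41 ± 0.09 (SE, n = 5 and 5), an adjusted p of 0.00103 and a 1.33-fold rise. In miR-155 KO it had 106, 97.4, 121, 91.8 and 101 CPM in air and 113, 114, 139, 98.4 and 106 in smoke, groups that overlapped, with a change of 0.14 ± 0.09 (adjusted p = 0.33).

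Sdhd (chr9:50596357-50603812), the other anchor, stood at 121, 138, 117, 137 and 114 CPM in WT air and at 168, 155, 145, 152 and 160.5 in WT smoke, again without overlap. Its change was 0.32 ± 0.08 in WT (adjusted p = 0.00283). The KO mice had 124, 116, 114, 132 and 125 CPM in air and 139.9, 128, 142, 124 and 110.3 in smoke and overlapped, with a change of 0.07 ± 0.08 (adjusted p = 0.6). Sdhb (chr4:140961203-140979193), the iron-sulfur subunit, had 106, 102, 102, 110.2 and 115 CPM in WT air and 140.3, 127, 164, 139 and 135 in WT smoke, where the groups kept apart, a change of 0.39 ± 0.10 (adjusted p = 0.00418). Among KO mice it had 108, 95.4, 87.6, 139 and 114 CPM in air and 128, 114, 95.8, 108 and 121 in smoke, a change of 0.07 ± 0.10 (adjusted p = 0.701).

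Sdha (chr13:74322254-74350280), the flavoprotein that oxidizes succinate, was among the 2 steadiest of the 43 genes in WT. It had 316, 290.4, 288, 286 and 286 CPM in WT air, 292, 304, 287, 312 and 303 in WT smoke, 254, 269, 299, 297 and 287 in KO air and 304, 276, 266, 269.8 and 251 in KO smoke. All 4 groups overlapped in pairs, and the changes with smoke were 0.03 ± 0.06 in WT (adjusted p = 0.786) and -0.04 ± 0.06 in miR-155 KO (adjusted p = 0.719). Its 3 partners rose by 0.32 to 0.41. With the trend on the longest transcript length removed, the WT change of Sdhd was 0.15 (adjusted p = 0.154) and that of Sdhb 0.22 (adjusted p = 0.0674). Sdhc, whose longest transcript has 3171 nt and its median 815, still passed at 0.39 (adjusted p = 0.00143). With the median transcript length instead, Sdhd, Sdhb and Sdhc all passed at 0.29, 0.36 and 0.36 (adjusted p = 0.00572, 0.0071 and 0.00297).

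Complex III split into small subunits that rose and a core protein that fell. Of its 8 genes 2 rose and 1 fell in WT smoke, with a median log2 change of 0.22. Uqcrq (chr11:53427922-53430831), a small subunit next to the ubiquinone site, had 45.00, 34.6, 41.4, 45.5 and 38.9 CPM in WT air and 64.4, 50.4, 73.6, 75.04 and 63.7 in WT smoke. Every smoke mouse was higher, with a change of 0.66 ± 0.12 (adjusted p = 0.000148), a 1.58-fold rise. In KO air it had 36.1, 34.6, 41.1, 45.8 and 39.01 CPM and in KO smoke 48.6, 50.8, 57.7, 38.3 and 48.3, which overlapped, a change of 0.30 ± 0.12 (adjusted p = 0.0898).

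Uqcrb (chr13:66900617-66905378), another small subunit on the ubiquinone side, had 58.6, 76.8, 68.1, 63.8 and 77.9 CPM in WT air and 86.9, 93.9, 112, 88.2 and 89.2 in WT smoke, without overlap. It rose by 0.45 ± 0.10 in WT (adjusted p = 0.00162). The KO mice had 72.6, 71.99, 52.4, 71.6 and 59.6 CPM in air and 70.3, 69.8, 72.7, 63.9 and 77.4 in smoke, a change of 0.12 ± 0.10 (adjusted p = 0.484). A near-identical transcript, Gm16089, is in the table too, so its reads may be split and its values are uncertain. Among the remaining small subunits, Uqcr10 and Uqcr11 changed by 0.36 ± 0.14 and 0.28 ± 0.11 in WT and Uqcrh by 0.16 ± 0.09, none of them past the threshold (adjusted p = 0.055, 0.0592 and 0.241).

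Uqcrc2 (chr7:120635176-120659524), a core protein on the matrix side, was the only one of the 43 called lower with smoke in both genotypes. It had 143, 134, 136, 146 and 139 CPM in WT air and 115, 111, 114, 116 and 115 in WT smoke. The WT smoke mice lay within a narrow band below all WT air mice, with a change of -0.29 ± 0.08 (adjusted p = 0.00955). KO air mice had 124, 118, 154, 157 and 139 CPM and KO smoke mice 119, 97.9, 104, 118 and 93.5, which overlapped, with a change of -0.38 ± 0.08 (adjusted p = 0.00137). Without mice IIIb2, IIIb3 and IIIb4 the KO change was -0.19 (adjusted p = 0.227), and the WT change was as before at -0.29 (adjusted p = 0.0028). Exons of Pdzd9 overlap 19.7% of its exonic bases. The partner core protein Uqcrc1 changed by 0.06 ± 0.08 in WT and 0.07 ± 0.08 in miR-155 KO, and the Rieske iron-sulfur protein Uqcrfs1 by 0.03 ± 0.08 and -0.21 ± 0.08 (adjusted p = 0.0653 in miR-155 KO).

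Complex IV had 7 of its 10 widely expressed subunits up in WT smoke, and none of its 14 genes was called in miR-155 KO. The 10 had a median log2 change of 0.33 in WT and 0.09 in miR-155 KO. Cox5a (chr9:57521274-57532426), a matrix-side subunit, had 125, 129.9, 121, 135 and 134 CPM in WT air and 185, 143, 188, 163 and 166 in WT smoke. No WT smoke mouse fell among the WT air mice, and the change was 0.38 ± 0.08 (adjusted p = 0.0011). In KO air it had 122, 131, 113, 150.3 and 121 CPM and in KO smoke 145, 131, 113, 125 and 135, where smoke and air overlapped with a change of 0.03 ± 0.08 (adjusted p = 0.864). The transcript Gm26631 overlaps 12.8% of its exonic bases.

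Cox4i1 (chr8:120668222-120674207), the largest nuclear subunit, had 295, 304, 246, 301 and 301 CPM in WT air and 379, 311, 400.0, 372 and 376 in WT smoke, without overlap. Its change was 0.34 ± 0.08 in WT (adjusted p = 0.00143). With 288, 288, 306, 369.8 and 290.1 CPM in KO air and 328, 347, 345, 301 and 313 in KO smoke, the KO groups overlapped and the change was 0.09 ± 0.08 (adjusted p = 0.491). Emc8, whose exons overlap 9.9% of its exonic bases, changed by 0.36 ± 0.09 in WT (adjusted p = 0.00299), and strand use in counting is not given in the sources used here.

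Cox6a1 (chr5:115345642-115348981), the form of subunit 6A used outside heart and muscle, had 101, 84.6, 90.3, 94.98 and 114 CPM in WT air and 143, 105, 129.6, 130.0 and 146 in WT smoke. A single WT smoke mouse, IIa5, lay among the WT air mice, and the change was 0.42 ± 0.10 (adjusted p = 0.00285). KO air mice had 95.9, 112, 88.1, 131 and 96.6 CPM and KO smoke mice 106, 111, 123, 96.9 and 109, a change of 0.07 ± 0.10 (adjusted p = 0.708). Cox6b1 (chr7:30616861-30626151), which faces cytochrome c, had 161, 166, 154, 179 and 189.5 CPM in WT air and 212, 203, 228, 214 and 199.9 in WT smoke, apart from each other, a change of 0.32 ± 0.08 (adjusted p = 0.00308). Its KO values of 167, 145, 179.6, 195 and 175 CPM in air and 189, 180.2, 202, 173 and 159 in smoke overlapped, a change of 0.07 ± 0.08 (adjusted p = 0.598).

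Cox7a2 (chr9:79755361-79759878), the widely expressed form of subunit 7A, had 85.3, 101, 90.95, 95.8 and 91.1 CPM in WT air and 104, 112, 126, 112 and 119.7 in WT smoke, without overlap. The change of 0.31 ± 0.10 (adjusted p = 0.0237) no longer passed without mouse Ia3, IIb1 or IIb3, where the adjusted p reached 0.0735. KO mice had 85.3, 72.9, 71.3, 95.1 and 60.1 CPM in air and 102, 87.95, 86.4, 75.9 and 86.95 in smoke, a change of 0.20 ± 0.10 (adjusted p = 0.176). Cox8a and Cox7b completed the 7, with changes of 0.44 ± 0.13 (adjusted p = 0.0118) and 0.34 ± 0.08 (adjusted p = 0.00345). Cox5b and Cox6c had changes of 0.22 ± 0.10 and 0.22 ± 0.10 that did not pass (adjusted p = 0.122 and 0.13).

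Cox7c (chr13:86044816-86046904), a small membrane subunit, was the other steady gene. It had 60.1, 51.4, 50.2, 51.4 and 50.3 CPM in WT air and 58.5, 51.04, 44.3, 49.6 and 54.7 in WT smoke, a change of -0.03 ± 0.11 (adjusted p = 0.884). The KO mice had 46.02, 38.7, 37.3, 48.1 and 32.9 CPM in air and 47.5, 45.2, 47.3, 42.3 and 46.2 in smoke, so that KO air lay below WT air without overlap, a difference of -0.39 ± 0.11 that did not pass (adjusted p = 0.103). Cox7a2l, a factor that joins complexes III and IV into supercomplexes, changed by -0.21 ± 0.08 in WT and -0.23 ± 0.08 in miR-155 KO, neither past the threshold (adjusted p = 0.075 and 0.0592).

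The tissue isoforms of complex IV were low or moved the other way. Cox6b2 (chr7:4751792-4753094), the form of subunit 6B known from testis, had 39.3, 40.7, 41.9, 39.02 and 28.6 CPM in WT air and 27.9, 26.6, 31.04, 27.2 and 32.4 in WT smoke. These overlapped, and the fall of -0.37 ± 0.13 (adjusted p = 0.0431) was lost without any of 10 mice (Ia3, Ia4, Ib1, Ib2, IIa1, IIa5, IIb1, IIb2, IVa4 and IVb4), with an adjusted p of up to 0.105. KO air mice had 29.2, 38.7, 38.4, 44.00 and 35.2 CPM and KO smoke mice 28.5, 28.9, 36.7, 23.9 and 29.3, a change of -0.33 ± 0.13 (adjusted p = 0.0942).

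Cox7a1 (chr7:30184144-30186078), the heart and skeletal muscle form of subunit 7A, had 1.83, 2.63, 2.55, 0.426 and 2.47 CPM in WT air, 3.51, 3.46, 4.27, 3.54 and 4.70 in WT smoke, 0.837, 0.874, 9.97, 0 and 1.61 in KO air and 2.87, 2.74, 2.999, 3.40 and 3.06 in KO smoke. WT smoke lay above WT air in every mouse, but the change of 1.17 ± 0.76 did not pass (adjusted p = 0.306). The KO change of 1.62 did not pass either (adjusted p = 0.161). Without IIIb2, IIIb3 and IIIb4 the WT change passed (adjusted p = 0.047), and without Ib2 it was 0.70 (adjusted p = 0.596). The KO change was 2.45 and passed without IIIb2 alone (adjusted p = 0.0113), but was 0.67 without IIIb3 alone (adjusted p = 0.499). Cox6a2 (chr7:128205435-128206387), the muscle form of subunit 6A, had 0.457, 0, 0.444, 0 and 0.449 CPM in WT air, 1.41, 2.01, 2.36, 0.858 and 0.855 in WT smoke, 1.09, 0, 0, 0 and 0 in KO air and 1.49, 1.42, 0.818, 0 and 0.792 in KO smoke. These rest on 12, 71, 13 and 39 reads per group, and the WT mice did not overlap at an adjusted p of 0.0541. The WT change passed without IIIb2, IIIb3 and IIIb4 (adjusted p = 0.0428) and without Ia3, Ib1, Ib4, IIIa5 or IVb2 alone (adjusted p = 0.0278 to 0.049). Without Ia4 or Ib2 alone its adjusted p was 0.143 and 0.145. The KO change of 2.44 did not pass (adjusted p = 0.113). It passed without IIIa5 or IVb2 alone (adjusted p = 0.0247 and 0.0179). Without IIIb2, IIIb3 and IIIb4 it was 1.36 (adjusted p = 0.614). Markers of striated and heart muscle, 2 of 10 measured, summed to 0.359 to 2.98 CPM in WT air and 0.615 to 4.06 in WT smoke. Itgad, whose exons overlap 10.3% of those of Cox6a2, fell by 3.22 ± 0.39 on the log2 scale in WT smoke (adjusted p = 4.06e-07).

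**Figure D2:**
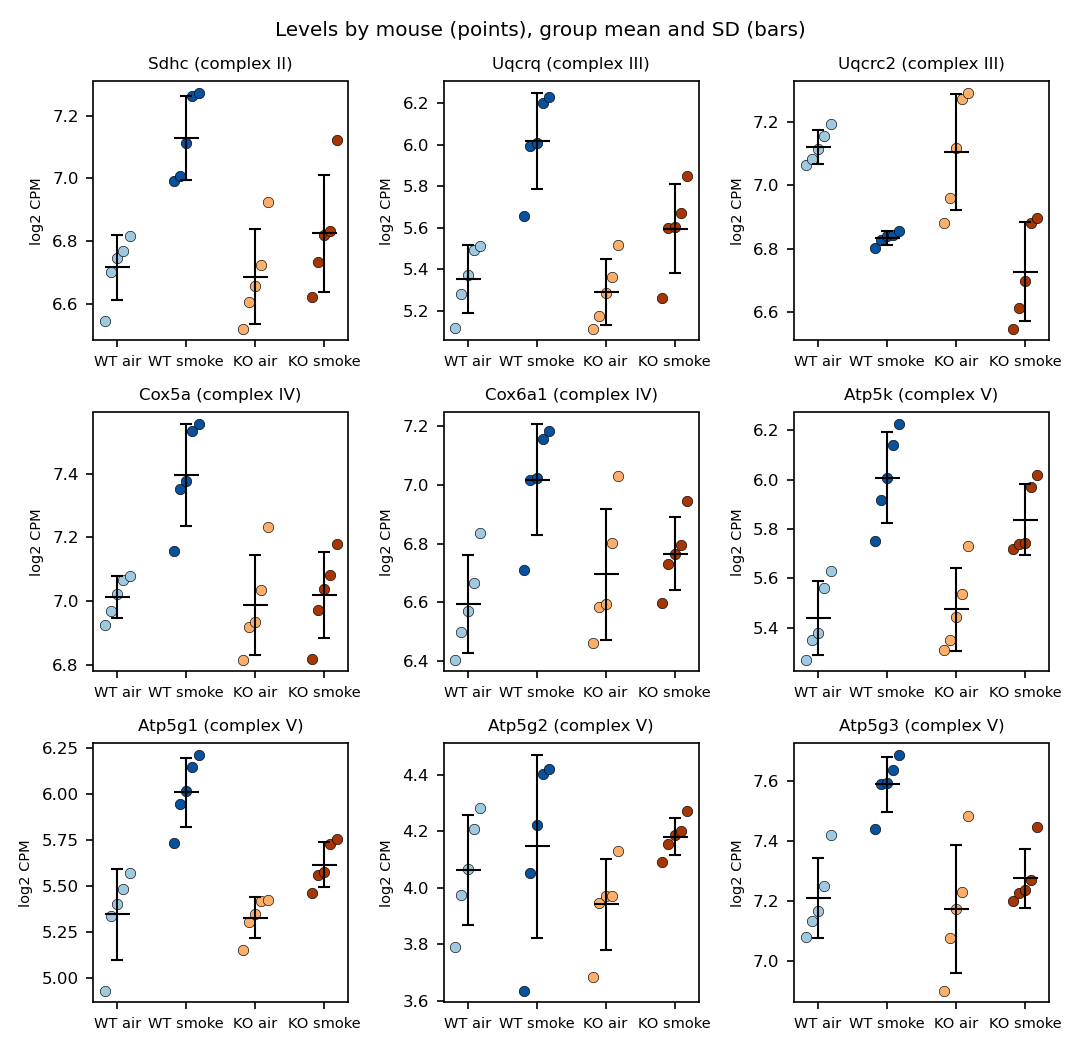
Log2 CPM (y axis) of 9 genes in each mouse (points) by group (x axis), with the group mean and SD as bars, 5 mice per group. WT smoke mice lie above WT air mice without overlap in Sdhc, Uqcrq, Cox5a, Atp5k, Atp5g1 and Atp5g3 and below them in Uqcrc2, while the 2 WT groups overlap in Atp5g2 and, through a single mouse, in Cox6a1.

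Complex V had 9 of its 16 subunits up in WT smoke and 3 in miR-155 KO, with none down in either. The c ring, which turns as protons pass, held both the largest called rise of the 43 genes and a paralog, Atp5g2, that did not pass. Atp5g1 (chr11:96068852-96075670) had 42.3, 30.4, 40.3, 44.7 and 47.5 CPM in WT air and 74.04, 53.04, 70.8, 64.8 and 61.6 in WT smoke, without overlap, a rise of 0.67 ± 0.11 (adjusted p = 7.33e-05). In KO air it had 39.4, 35.5, 40.5, 42.8 and 42.6 CPM and in KO smoke 47.6, 54.00, 47.03, 52.9 and 43.9. The KO groups did not overlap either, but the change of 0.29 ± 0.11 did not pass (adjusted p = 0.0906). Stretches of 12 other transcripts match annotated Atp5g1 transcripts, so its reads may be shared.

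Atp5g3 (chr2:73908447-73911326) had 140.4, 171, 144, 152 and 135 CPM in WT air and 193, 174, 206, 193 and 199 in WT smoke, a non-overlapping rise of 0.38 ± 0.09 (adjusted p = 0.00144). With 135, 144, 119.6, 179 and 150.1 CPM in KO air and 149.6, 154, 151, 174 and 147 in KO smoke, it changed by 0.10 ± 0.09 in miR-155 KO (adjusted p = 0.467). Atp5g2 (chr15:102662864-102672352) had 16.7, 19.4, 13.8, 15.7 and 18.4 CPM in WT air and 18.6, 12.4, 16.5, 21.1 and 21.4 in WT smoke, which overlapped widely, a change of 0.08 ± 0.17 (adjusted p = 0.791). It had 17.5, 15.6, 15.4, 12.8 and 15.6 CPM in KO air and 17.8, 19.3, 18.1, 18.4 and 16.98 in KO smoke, a change of 0.24 ± 0.17 (adjusted p = 0.38). Levels of the 3 can be compared per transcript length. Per kb of the longest annotated transcript WT air had 172 ± 16.4 CPM of Atp5g3, 22.3 ± 2.95 of Atp5g2 and 8.70 ± 1.38 of Atp5g1 (SD, n = 5), and per kb of the median transcript 193 ± 18.3, 24.6 ± 3.26 and 15.3 ± 2.44. By both lengths Atp5g3 was highest and Atp5g1 lowest. Before division by length, Atp5g1 had a WT air mean of 41.03 CPM, above the 16.8 of Atp5g2. The order of these genes thus turns on the annotated lengths. The longest and median transcripts have 4715 and 2675.5 nt for Atp5g1 and 753 and 683 nt for Atp5g2.

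Of the membrane subunits that flank the ring, 3 of 4 rose in WT. Atp5k (chr5:108433244-108434448), subunit e, at the contact between ATP synthase dimers, had 41.6, 38.5, 40.8, 49.5 and 47.2 CPM in WT air and 64.3, 53.8, 70.4, 60.5 and 74.7 in WT smoke, without overlap, a rise of 0.57 ± 0.11 (adjusted p = 0.000232). KO air mice had 43.5, 40.8, 46.3, 53.01 and 39.6 CPM and KO smoke mice 53.5, 64.8, 52.6, 62.7 and 53.4. Only the highest KO air mouse reached into the KO smoke range, and the rise of 0.36 ± 0.11 passed (adjusted p = 0.0197) but not without mouse IIIb1, IIIb4, IVa4 or IVb2, where the adjusted p reached 0.0671. Without IIIb2, IIIb3 and IIIb4 together it was the only KO call left, at 0.44 (adjusted p = 0.0366).

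Atp5j2 (chr5:145183698-145192062), subunit f, had 99.03, 82.5, 87.1, 94.1 and 105 CPM in WT air and 113, 116, 114, 116 and 113 in WT smoke, without overlap, a rise of 0.30 ± 0.08 (adjusted p = 0.00994). Its KO values were 83.00, 78.2, 90.1, 103 and 88.4 CPM in air and 105, 93.98, 82.3, 85.1 and 87.1 in smoke, a change of 0.03 ± 0.08 (adjusted p = 0.85). The small proteolipid Atp5mpl rose by 0.36 ± 0.13 in WT (adjusted p = 0.0368), a call lost without Ia4, Ib1, Ib4, IIa1, IIb1 or IIb2 (adjusted p up to 0.117). Atp5l, subunit g, changed by -0.42 ± 0.28 (adjusted p = 0.311), and is uncertain because 10 near-identical transcripts exist, among them Gm4045 of the table.

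In the peripheral stalk, which holds the F1 head still, 3 of 4 subunits rose in WT. Atp5j (chr16:84827866-84835625), coupling factor 6, had 82.6, 95.4, 79.7, 87.2 and 90.2 CPM in WT air and 112, 91.5, 129, 116 and 126 in WT smoke, groups that overlapped, a rise of 0.39 ± 0.09 (adjusted p = 0.00177). In KO air it had 80.8, 78.3, 78.8, 77.5 and 60.9 CPM and in KO smoke 96.05, 93.3, 92.2, 101 and 92.05, without overlap, a rise of 0.34 ± 0.09 (adjusted p = 0.00893). Without IIIb2, IIIb3 and IIIb4 the KO rise was 0.25 (adjusted p = 0.165). Gabpa, the neighbour on the opposite strand whose exons overlap 12.7% of those of Atp5j and which encodes an ETS factor that binds the core shown above, fell by 0.44 ± 0.10 in WT smoke (adjusted p = 0.000983). Atp5o and Atp5h rose by 0.39 ± 0.10 and 0.31 ± 0.08 in WT (adjusted p = 0.0071 and 0.00633), both with a near-identical transcript in the table (Gm5436 and Gm10250). Exons of a second gene entry named Atp5o, of D430001F17Rik and of Gm15976 overlap 47.9% of the exonic bases of Atp5o, so its values are uncertain. Atp5f1, subunit b, changed by 0.18 ± 0.08 (adjusted p = 0.0884).

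In the catalytic F1 head the small epsilon subunit alone passed. Atp5e (chr2:174461072-174464105) had 113, 84.02, 125, 108 and 99.4 CPM in WT air and 142, 129, 165, 143 and 149 in WT smoke, without overlap, a rise of 0.46 ± 0.10 (adjusted p = 0.00123). KO air mice had 97.6, 73.9, 103, 97.2 and 83.5 CPM and KO smoke mice 116, 119.5, 117, 90.6 and 115, which overlapped, a rise of 0.30 ± 0.10 (adjusted p = 0.0479). That KO call was lost without any of 12 mice (Ia3, Ib2, Ib4, IIa1, IIb2, IIb3, IIIb1, IIIb4, IVa2, IVa4, IVa5 and IVb4), with an adjusted p of up to 0.15. The alpha, beta, gamma and delta subunits Atp5a1, Atp5b, Atp5c1 and Atp5d had WT changes of 0.15, 0.10, 0.17 and 0.24 (adjusted p = 0.103, 0.211, 0.0537 and 0.0594). Atp5b, the catalytic beta subunit, had the highest WT air level of the 43 genes by either length, at 429 ± 13.9 CPM per kb of its longest transcript and 1071 ± 34.8 per kb of the median. Atp5s, a coupling factor, changed by -0.36 ± 0.37 (adjusted p = 0.552).

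Turning to miR-155 KO as a whole, 7.05% of all genes rose and 8.45% fell with smoke. The 3 that rose among the 43, Atp5j, Atp5k and Atp5e, are 6.98% of them, and Uqcrc2 alone, or 2.33%, fell. These shares lie at or below those of all genes. The median log2 change was 0.09, with 34 of the 43 above 0, against -0.01 over all genes. Without IIIb2, IIIb3 and IIIb4 the WT comparison had 29 higher and 3 lower, beside 11.9% and 14.9% of all genes. Without these mice the KO comparison had 1 higher and none lower, beside 4.63% and 4.6% of all genes.

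**Figure D3:**
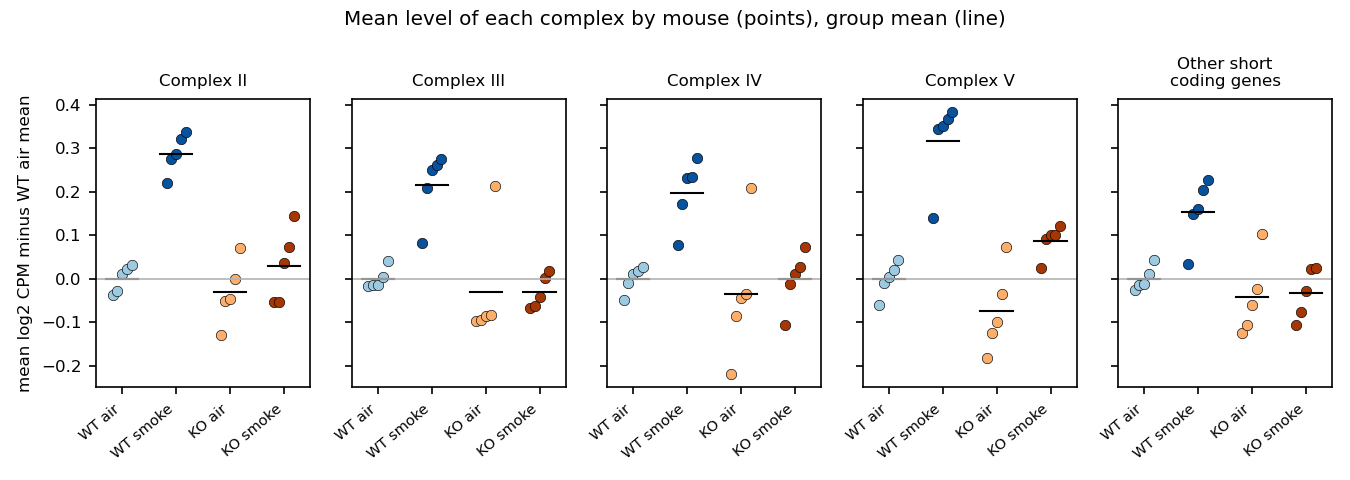
Mean over the genes of a complex of log2 CPM minus the WT air mean (y axis), in each mouse (points) by group (x axis), with the group mean as a line, for the 39 genes whose log2 CPM averaged 3 or more and, at the right, for 264 other coding genes with transcripts under 1000 nt. WT smoke mice are above WT air mice in all 4 complexes and, apart from mouse IIa5, among the other short genes.

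Each mouse can be placed by the mean over those 39 genes, set to 0 at the WT air mean. WT air mice lay at -0.03 to 0.04 and WT smoke mice at 0.28, 0.12, 0.32, 0.27 and 0.30, mouse IIa5 being the lowest. KO air mice lay at -0.05, -0.13, -0.08, 0.14 and -0.12, where IIIb3 stood above the other 4, and KO smoke mice at 0.06, 0.05, 0.06, -0.01 and -0.01. KO smoke mice therefore lay within or close to the WT air range and below every WT smoke mouse. The 43 genes took 0.48% to 0.494% of reads in WT air, 0.521% to 0.597% in WT smoke, 0.445% to 0.531% in KO air and 0.47% to 0.506% in KO smoke.

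In air, 0.151% of all genes were higher and 0.265% lower in miR-155 KO than in WT by limma, and none of the 43 was called. At an unadjusted p under 0.05 there were 6 of them, or 14.0%, against 11.6% of all genes, and the lowest adjusted p was that of Cox7c. In smoke, 0.892% of all genes were higher and 0.688% lower, and of the 43 none was higher and 4 were lower. These were Cox5a at -0.38 ± 0.08 (adjusted p = 0.0139), Atp5j2 at -0.34 ± 0.08 (adjusted p = 0.0277), Uqcrb at -0.40 ± 0.10 (adjusted p = 0.0343) and Cox7a2 at -0.39 ± 0.10 (adjusted p = 0.0354). Of the 43 changes 38 were below 0, with a median of -0.23 against -0.02 over all genes. Among genes with a longest transcript under 1000 nt the median was -0.22 for 19 of the 43 and -0.19 for 264 other coding genes. Under 1000 nt by the median transcript length it was -0.22 for 34 of the 43 and -0.05 for 3342 others. With the length trend removed, the median of the 43 was -0.11 by the longest and -0.17 by the median transcript. The genotype comparison in smoke uses the same WT smoke mice as the WT smoke response, so the pair are not independent.

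The calls between genotypes in smoke were not stable. Cox5a was lost without IIa1, IIb1 or IVa5, with an adjusted p of up to 0.0718. Atp5j2 was lost without any of 7 mice (IIa1, IIb1, IIb2, IIb3, IVa5, IVb2 and IVb4), up to 0.0866, and Cox7a2 without any of 7 (IIb1, IIb2, IIb3, IVa4, IVa5, IVb2 and IVb4), up to 0.133. Uqcrb was lost without any of 6 (IIb1, IIb2, IVa2, IVa4, IVa5 and IVb2), up to 0.151. Leaving out IIb1 left 0 of the 4. Leaving out IIa5, the lowest WT smoke mouse, gave 11 lower genes, beside 1.28% of all genes. Without IIIb2, IIIb3 and IIIb4 there were 10, beside 1.35% of all genes.

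The difference of the smoke responses, miR-155 KO minus WT, passed for 0 of the 43 genes and for 0 of all genes by limma, 0.0% in either direction. At an unadjusted p under 0.05 there were 17 of the 43 and 1302 of all 13225. It was -0.35 ± 0.12 for Cox5a (adjusted p = 0.309, the lowest of the 43), -0.35 ± 0.15 for Cox6a1 (adjusted p = 0.394), -0.38 ± 0.16 for Atp5g1 (adjusted p = 0.421) and -0.36 ± 0.17 for Uqcrq (adjusted p = 0.494). For Atp5j and Atp5k, called in both genotypes, it was -0.05 ± 0.13 and -0.21 ± 0.15 (adjusted p = 0.921 and 0.693). That the WT response had more calls than the KO response is thus not shown to be a difference between the genotypes.

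**Figure D4:**
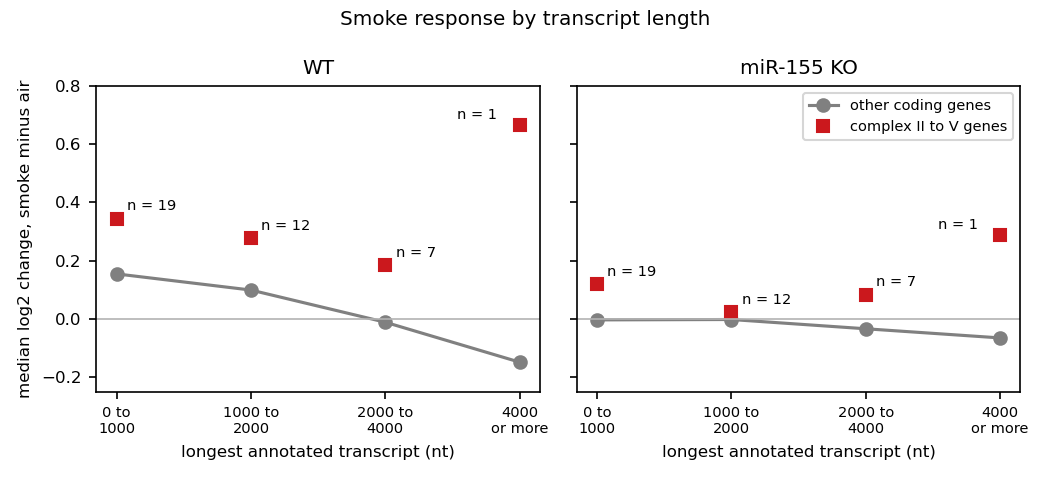
Median log2 change with smoke (y axis) by length of the longest annotated transcript (x axis) for genes whose log2 CPM averaged 3 or more, in WT (left) and miR-155 KO (right). Grey points are coding genes outside the 43 and red squares the 43, with their number. In WT the grey points fall from short to long transcripts and the red squares lie above them in every class.

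Most of these genes have short transcripts, and in WT genes whose longest annotated transcript is short tended to rise with smoke. Among 264 coding genes outside the 43 with a longest transcript under 1000 nt, the median log2 change in WT smoke was 0.15, with 21.2% called higher, and the 19 of the 43 in that class had a median of 0.34. Between 1000 and 2000 nt the values were 0.10 for 1239 others and 0.28 for 12 of the 43, and from 2000 to 4000 nt -0.01 for 3587 others and 0.18 for 7. At 4000 nt or more the median of the others was -0.15. In miR-155 KO the shortest class had -0.003 for the others and 0.12 for the 19. By the median transcript length, 3342 others under 1000 nt had a WT median of 0.01, with 14.1% called higher and 13.3% lower. The 34 of the 43 in that class had 0.31. With the trend of log2 CPM on the longest transcript length removed from each library, 6 of the 43 rose in WT (Sdhc, Uqcrq, Cox5a, Atp5g1, Atp5k and Atp5e) and 3 fell (Uqcrc2, Cox6b2 and Cox7a2l). Under that setting 9.09% of all genes rose and 11.4% fell. With the median transcript length instead, 19 rose and the same 3 fell, beside 9.69% and 12.7% of all genes. In 18 of the 43 genes the longest annotated transcript is not a protein-coding one.

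Other genes of the pathway were taken by list. Of the 6 mitochondrially encoded subunits of these complexes, 2 were measured, and neither passed in WT smoke (mt-Cytb 0.22 ± 0.09, adjusted p = 0.067; mt-Co1 0.24 ± 0.09, adjusted p = 0.0729). Of the subunits of complexes IV and V under other symbols, 3 were measured and 1 rose, Ndufa4, a complex IV subunit despite its name, at 0.36 ± 0.07 (adjusted p = 0.000413). Cytochrome c and cytochrome c1 gave 0 calls of 2. The assembly factors of complex IV had 2 of 22 higher in WT. Cox10, an enzyme on the path to heme A, changed by 0.57 ± 0.20 (adjusted p = 0.0344). Coa4 changed by 0.56 ± 0.20 (adjusted p = 0.0418). Cox10 rose in miR-155 KO as well, at 0.61 ± 0.20 (adjusted p = 0.0317). Of the 6 assembly factors of complex III, Uqcc2 rose in WT at 0.55 ± 0.19 (adjusted p = 0.0354), and those of complexes II and V, 4 and 3, gave no call. Of 11 genes for supercomplexes and cristae Chchd3, a part of the complex that shapes cristae, rose in WT at 0.30 ± 0.11 (adjusted p = 0.0438).

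Among genes of the citric acid cycle Idh3b rose in WT at 0.34 ± 0.07 (adjusted p = 0.0011) and Cs, citrate synthase, at 0.19 ± 0.06 (adjusted p = 0.0127). In miR-155 KO Idh3b rose at 0.25 ± 0.07 (adjusted p = 0.0217) and Idh2 fell, at -0.27 ± 0.09 (adjusted p = 0.0373). In smoke, malate dehydrogenase Mdh2 was lower in miR-155 KO than in WT by -0.30 ± 0.08 (adjusted p = 0.042). The adenine nucleotide carrier Slc25a4 rose in both genotypes, by 0.22 ± 0.08 in WT (adjusted p = 0.0355) and 0.25 ± 0.08 in miR-155 KO (adjusted p = 0.0217). Among 15 measured regulators of mitochondrial biogenesis none rose. Yy1 and Gabpa fell in WT, at -0.49 ± 0.10 (adjusted p = 0.000587) and -0.44 ± 0.10, and Pprc1 and Nrf1 fell in miR-155 KO, at -0.43 ± 0.10 (adjusted p = 0.00196) and -0.55 ± 0.15 (adjusted p = 0.00942).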

How the data were processed

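Poly-A RNA of sorted alveolar macrophages from 20 mice was sequenced, 1 library per mouse. The submitters' processing notes name STAR 2.6.0c, limma and the build GRCm38.p6. Counting tool, annotation and strand setting are not given in sources used here. The authors deposited log2 CPM, which follow the voom formula (0.5 added to the reads of a gene and 1 to the library total). Solved for reads, every value came out whole within 0.001, and CPM per mouse were computed from those reads.

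A model with a mean per group and a trended empirical Bayes variance was fitted with limma 3.58.1 in R 4.3.3 to the table as deposited, all 13225 genes. P values are 2-sided, adjusted within a contrast over all genes (Benjamini-Hochberg), and called under 0.05. The step was tested on simulated data. Errors of log2 changes are standard errors over mice and other errors are SDs. Each mouse code occurs once, so nothing pairs the groups.

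The genes, lists and tests were chosen with earlier results of these data known. Values per mouse are given for up to 4 called genes of each complex with the smallest p in WT smoke, for the called gene with the largest fall per complex, for up to 4 called genes of each other contrast, for the c ring genes, for the tissue isoforms of complex IV and for the 2 steadiest genes. Other pathway genes named are up to 2 called per list, contrast and direction. Cs goes beyond that and was added after its value was seen. One result on a pathway gene is not reported here. Gene positions, transcript lengths and exon overlaps are from GENCODE M21 on GRCm38, near-identical transcripts from BLAST 2.17.0, and promoters from RefSeq on GRCm38.p6. Alternatives changed the variance prior, the expression filter, the offset, the scaling, the weights, a length trend and the libraries used. No sequence of a protein was used here.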

Additional observations from a re-analysis of the deposited data

Results flagged for a closer look

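Among the 23 genes given mouse by mouse, 92 groups of 5 mice were examined for a mouse far from the other 4, and 12 stood out by a Dixon ratio. Chance alone flags about 1 in 20 groups. Values are log2 CPM. For Cox4i1, mouse Ib1 was low in WT air at 7.94, with the next at 8.20, IIa5 was low in WT smoke at 8.28, with the next at 8.54, and IIIb3 was high in KO air at 8.53, with the next at 8.26. The other nuclear complex IV genes among the 12 were Cox6b2 (Ib4 low in WT air, 4.84), Cox7c (Ia3 high in WT air, 5.91), Cox7a1 (Ib2 low in WT air, -1.06) and Cox6a2 (IIIa5 high in KO air, 0.18, and IVb2 low in KO smoke at -4.45, which is 0 reads). For complex V, Atp5e was low in mouse IVb2 of KO smoke at 6.502, Atp5g3 was high in the same mouse at 7.45 and Atp5j was low in mouse IIIb4 of KO air at 5.93. For complex II, Sdha was high in mouse Ia3 of WT air at 8.30. Mouse IVb2 stood out in 3 genes, in both directions. The causes were not tested.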

How the results depend on the processing

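In WT smoke, 21 genes rose and 2 fell. Leaving out 1 mouse at a time gave 19 to 27 higher and 1 to 3 lower. With the length trend of the longest transcript removed 6 rose, beside 9.09% of all genes. With that of the median transcript 19 rose, beside 9.69%. With quantile normalization 28 rose and 0 fell, beside 11.6% and 11.3% of all genes. In KO smoke, with 3 higher and 1 lower, leaving out 1 mouse gave 1 to 6 higher and 1 to 3 lower. Quantile normalization gave 5 higher, beside 7.86% of all genes. The length trend gave 4 lower by the longest and 3 by the median transcript, beside 8.77% and 8.88%. Without mice IIIb2, IIIb3 and IIIb4 there were 1 higher and 0 lower, beside 4.63% and 4.6%. In air, miR-155 KO against WT had 0 to 1 lower without 1 mouse. In smoke, miR-155 KO against WT had 4 lower, and 0 to 11 without 1 mouse. It had 0 with a variance prior without trend, 1 with median centring or with the length trend of the longest transcript, 2 with that of the median transcript, 7 among genes whose log2 CPM averaged 3 or more, with log2 of CPM plus 1 or with quantile normalization, 8 with only the groups compared, 9 with voom weights and 10 without IIIb2, IIIb3 and IIIb4. Of all genes, 0.363% (variance prior without trend) to 1.41% (only the groups compared) were lower under these alternatives. The difference of the smoke responses had 0 under every setting. The cause of these shifts was not tested. The median-transcript setting was added after the data were seen. No paired analysis was possible because each mouse code occurs in a single group.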
